A study of Mus musculus with 19 samples.

Results

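The 10 genes Neurog3, Lin28a, Upp1, Rarg, Nanos3, Sohlh1, Sohlh2, Taf4b, Foxo1 and Ddit4 were chosen by name as genes linked to progenitor spermatogonia, and were followed in the SOX3 binding maps of the mouse testis. They are 10 of the 26182 genes with a curated RefSeq transcript on GRCm38, the assembly of mm10. For each gene all ChIP-seq peaks within 2 kb of a transcription start site (TSS), in the gene body and within 50 kb of the gene were taken, in each replicate. The libraries were 2 biological replicates of SOX3 ChIP-seq from testes of wild-type mice on a C57BL/6J background at postnatal day 7, and 2 replicates of SOX3 ChIP-nexus from the same tissue and age. The methods describe tubules pooled from several mice for each ChIP of a transcription factor, so a library holds somatic cells as well as all germ cells present at that age. The labels name 2 SOX3 antibodies and do not say which served which replicate. No other genotype, treatment or age entered, and the input, ZBTB16, SALL4 and histone libraries (15 of 19 labelled samples) were not analysed here. The files are peak lists, with no expression values, so the labelled tissue could not be checked against marker genes.

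Undifferentiated spermatogonia hold the stem cells of the male germ line and the progenitors that leave the stem cell pool and prepare to differentiate. Progenitors switch on Neurog3 and then become able to answer retinoic acid, which drives entry into differentiation. SOX3 is an X-linked SOX family transcription factor found in these progenitors. SOX proteins bind short A/T-rich words of the ACAAT or ACAAAG type through their HMG box.

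A q score in the lists is 10 times the negative log10 of the false discovery rate of a peak, and the log2 ratio is ChIP over input on a log2 scale. Both are the peak caller's values for 1 peak in 1 replicate. Replicate 1 listed 58351 peaks with a median q score of 41.4, and replicate 2 listed 38832 peaks with a median of 39.5. All listed peaks lay above a score of 30. A peak counted as found again when 1 peak of the other replicate covered at least 50% of its length, which held for 25.1% of the peaks of replicate 1 and 48.4% of those of replicate 2. With 2 replicates and peak lists, no test between genes or replicates was possible, and the values are a description.

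Most of these genes had a SOX3 peak at their promoter, as did most genes of the genome. A promoter peak, meaning a peak within 2 kb of a TSS, was listed for 9 of the 10 genes in replicate 1, where 62.7% of all genes had one. In replicate 2 it was listed for 8 of 10, beside 54.7% of all genes. Both replicates had one at 7 of 10 (Neurog3, Rarg, Sohlh1, Sohlh2, Taf4b, Foxo1 and Ddit4), beside 52.2% of all genes and 57.9% of protein-coding genes. At 6 of these 7 the promoter peaks of the replicates overlapped by 1 bp or more, with Neurog3 as the exception. In the genome they overlapped at 13318 of the 13665 genes with a promoter peak in both replicates. That is 50.9% of all genes. At all 6 a peak of one replicate, whichever it was, covered at least 50% of a peak of the other. Within 5 kb of a TSS both replicates had a peak at 8 of 10, beside 56.4% of all genes. At a q score above 60 in both replicates 4 remained (Rarg, Taf4b, Foxo1 and Ddit4), beside 35.2% of all genes. Lin28a and Nanos3 had a promoter peak in replicate 1 alone, and Upp1 in replicate 2 alone.

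**Figure D1:**
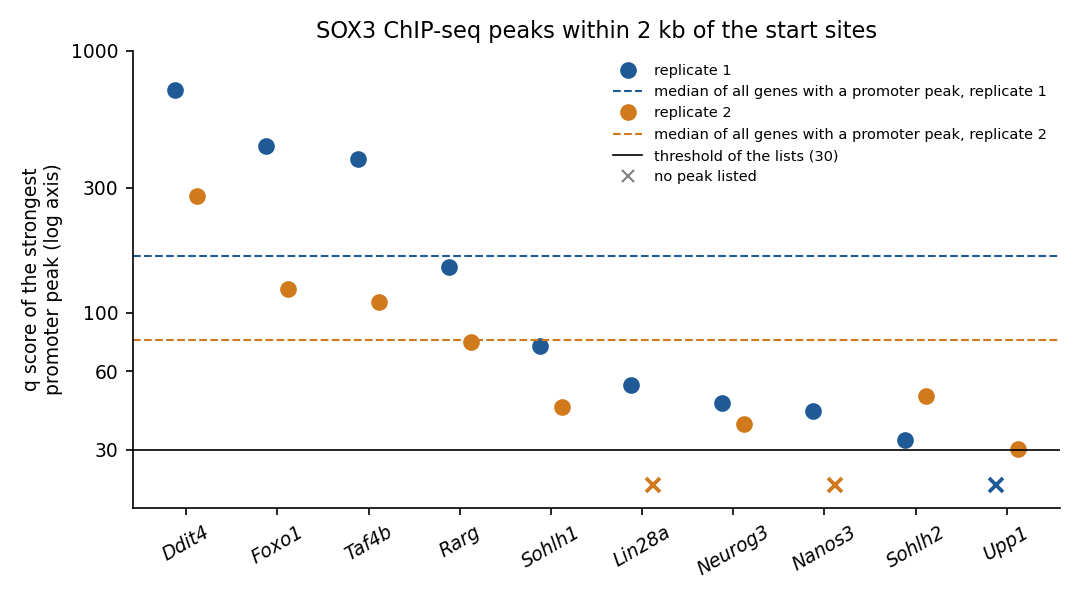
The q score of the strongest peak within 2 kb of a start site (vertical log axis) is shown for each gene, with replicate 1 in blue and replicate 2 in orange. Crosses mark a replicate with no listed peak, dashed lines the median over all genes with a promoter peak (165 and 78.8), and the black line the threshold of 30. Ddit4, Foxo1 and Taf4b lie above the dashed lines in both replicates, and Rarg lies just under them.

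The sequences before the start sites are shown for 2 purposes. The first set holds the 3 genes with a SOX word in the 300 bases from 250 before to 50 after the TSS, with the word in capitals. The first word searched was AACAAT, the second was ACAATG and the third was ACAAAG, each on both strands. The first and the second can overlap by 5 bases. All sequences are RefSeq GRCm38.p6, 5′ to 3′ on the strand of the gene, cut where a GENCODE exon begins.
Neurog3, chr10:62132840-62133089, plus strand: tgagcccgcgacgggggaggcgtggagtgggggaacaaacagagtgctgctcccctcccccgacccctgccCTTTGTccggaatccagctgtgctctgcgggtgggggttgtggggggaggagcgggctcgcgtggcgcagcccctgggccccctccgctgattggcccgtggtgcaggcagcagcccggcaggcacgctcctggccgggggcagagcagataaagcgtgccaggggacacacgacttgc
Lin28a, chr4:134018842-134019066, minus strand: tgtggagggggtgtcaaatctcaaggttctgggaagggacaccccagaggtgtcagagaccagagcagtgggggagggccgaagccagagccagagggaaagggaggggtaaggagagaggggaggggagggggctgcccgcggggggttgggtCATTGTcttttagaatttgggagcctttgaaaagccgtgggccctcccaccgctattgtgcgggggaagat
Nanos3, chr8:84176553-84176802, minus strand: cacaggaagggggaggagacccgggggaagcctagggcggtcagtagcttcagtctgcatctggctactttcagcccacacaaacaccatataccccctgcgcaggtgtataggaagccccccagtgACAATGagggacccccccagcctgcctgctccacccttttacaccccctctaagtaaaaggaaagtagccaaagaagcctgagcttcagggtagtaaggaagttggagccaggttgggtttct
Neurog3 carried CTTTGT, the reverse complement of ACAAAG. Lin28a carried CATTGT, the reverse complement of ACAATG, and Nanos3 carried ACAATG on its own strand. These were 3 of 13 distinct start sites of the 10 genes (23.1%), beside 30.3% of the 31647 start sites of all genes. AACAAT was at none of the 13 and at 9.40% of all start sites. Within 1 kb either side of the TSS a word was present at every one of the 13, as at 92.1% of all start sites.

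The second set shows CpG density, with each CG in capitals, for the 2 genes with the highest q scores whose promoters can be shown, for both Sohlh genes and for Upp1.
Ddit4, chr10:59951835-59952020, minus strand: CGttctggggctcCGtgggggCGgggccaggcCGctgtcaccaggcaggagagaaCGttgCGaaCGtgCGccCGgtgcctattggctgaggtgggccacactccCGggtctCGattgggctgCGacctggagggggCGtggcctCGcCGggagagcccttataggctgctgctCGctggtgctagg
Foxo1, chr3:52268087-52268335, plus strand: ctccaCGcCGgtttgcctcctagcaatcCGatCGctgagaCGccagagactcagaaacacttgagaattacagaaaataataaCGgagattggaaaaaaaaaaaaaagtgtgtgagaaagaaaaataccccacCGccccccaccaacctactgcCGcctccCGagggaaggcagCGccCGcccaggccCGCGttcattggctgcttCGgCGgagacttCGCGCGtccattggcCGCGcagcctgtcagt
Sohlh1, chr2:25847249-25847498, minus strand: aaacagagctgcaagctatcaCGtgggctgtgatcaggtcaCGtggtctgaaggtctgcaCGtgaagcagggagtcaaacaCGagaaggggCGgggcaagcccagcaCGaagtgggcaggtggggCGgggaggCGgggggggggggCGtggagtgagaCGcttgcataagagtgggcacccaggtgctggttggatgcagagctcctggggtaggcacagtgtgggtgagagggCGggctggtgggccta
Sohlh2, chr3:55181794-55182027, plus strand: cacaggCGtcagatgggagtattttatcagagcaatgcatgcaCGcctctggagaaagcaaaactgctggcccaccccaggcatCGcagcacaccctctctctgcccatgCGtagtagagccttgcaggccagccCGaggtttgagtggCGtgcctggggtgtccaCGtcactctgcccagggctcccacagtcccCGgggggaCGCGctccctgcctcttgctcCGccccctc
Upp1, chr11:9117758-9118007, plus strand: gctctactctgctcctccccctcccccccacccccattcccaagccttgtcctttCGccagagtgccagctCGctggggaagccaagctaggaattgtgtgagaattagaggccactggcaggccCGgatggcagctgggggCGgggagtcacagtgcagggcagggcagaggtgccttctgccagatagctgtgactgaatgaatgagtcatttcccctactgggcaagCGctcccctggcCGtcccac
The CpG observed/expected ratio, in which CpG depletion gives low values, was 0.729 in the stretch of Ddit4 and 1.05 in that of Foxo1. It was 0.513 for Sohlh1, 0.471 for Sohlh2 and 0.248 for Upp1.

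Over the whole 300 bases around each TSS, Foxo1 (1.10), Taf4b (1.05) and Ddit4 (0.761) had the highest CpG ratios of the 10 genes. The others ranged from 0.131 at Nanos3 to 0.633 at the most downstream of 3 Upp1 start sites. A start site was called CpG-rich at a ratio of at least 0.6 with a GC content of at least 50%, which held for 4 of the 13 start sites (30.8%) and for 41.3% of all. Across all genes 87.9% of CpG-rich promoters had a peak in both replicates, against 26.9% of the other promoters. The share rose from 10.2% of promoters with a ratio under 0.2 to 92.9% of those at 1.0 or more. Between 0.4 and 0.6, where Neurog3, Sohlh1, Sohlh2 and the inner Rarg start site lie, 51.3% of all promoters had a peak in both replicates, and these 4 did. The outer Rarg start site had one in both at a ratio of 0.335, where the share was 23.9%. In the same range, Lin28a (0.351) and the other Upp1 start sites (0.254 and 0.354) had a peak in 1 replicate only. The Upp1 start site at 0.633 had one in replicate 2 alone, where the share was 79.7%.

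**Figure D2:**
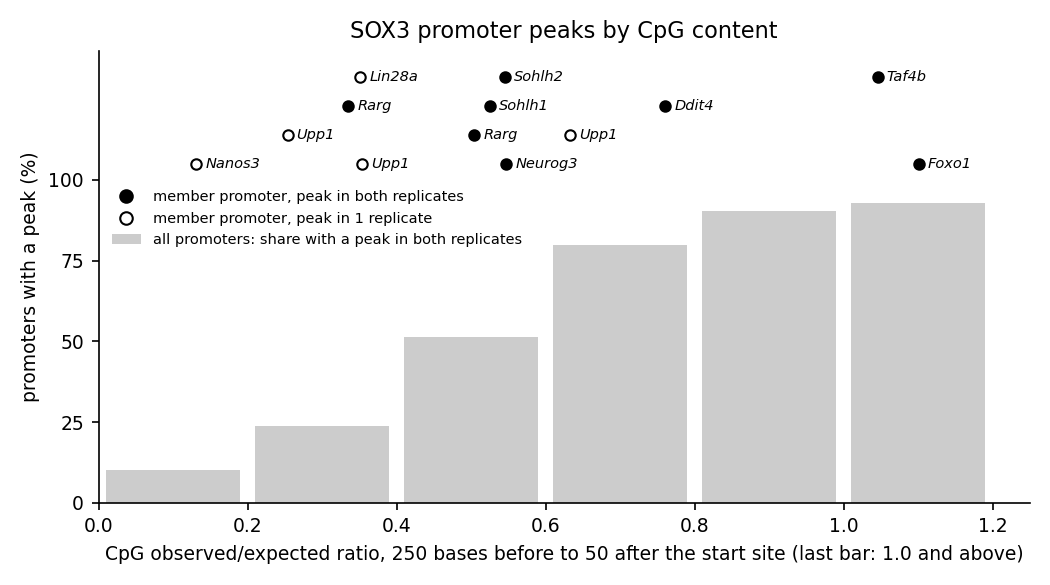
Grey bars give the percentage of all promoters with a SOX3 peak in both replicates (vertical axis) by CpG observed/expected ratio (horizontal axis), rising from 10.2% to 92.9%. Points above the bars mark the 13 start sites of the 10 genes at their own ratio and have no vertical scale, filled where both replicates had a promoter peak and open where 1 had.

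Neurog3 encodes a basic helix-loop-helix factor that marks progenitors. The gene lies at chr10:62133090-62134763 on the plus strand. Its promoter peaks were weak and lay in different places. The peak of replicate 1 (chr10:62134019-62134583, q score 45.5, log2 ratio 2.96) lay 929 bp downstream of the TSS within the exon, with 89 bases in coding sequence and 476 in untranslated exon. The peak of replicate 2 (chr10:62132548-62133050, q score 37.6, log2 ratio 2.34) ended 40 bp upstream of the TSS and covered most of the sequence shown above, including its word. The 2 peaks shared no base. Both also lay within 2 kb of a start site that GENCODE gives to Fam241b on the opposite strand.

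The reproduced peak of Neurog3 lay farther upstream, outside the 2 kb window. It spanned chr10:62128111-62129922 in replicate 1, ending 3168 bp before the TSS, with a q score of 80.9 and a log2 ratio of 3.87. In replicate 2 it spanned chr10:62128437-62130548, ending 2542 bp before the TSS, with a q score of 75.00 and a log2 ratio of 4.25. Both scores were above those of the promoter peaks of the same replicate. RefSeq has no gene there, and GENCODE places it in an intron of longer Fam241b transcripts on the opposite strand. The stretch listed in both replicates, chr10:62128437-62129922 (1486 bp), held 4 SOX words, or 2.69 words per kb. The 300 bases at its centre are shown on the strand of Neurog3 because they are the nearest SOX3 signal to this gene that both lists share, with the word in capitals.
Neurog3 upstream peak, chr10:62129030-62129329, plus strand: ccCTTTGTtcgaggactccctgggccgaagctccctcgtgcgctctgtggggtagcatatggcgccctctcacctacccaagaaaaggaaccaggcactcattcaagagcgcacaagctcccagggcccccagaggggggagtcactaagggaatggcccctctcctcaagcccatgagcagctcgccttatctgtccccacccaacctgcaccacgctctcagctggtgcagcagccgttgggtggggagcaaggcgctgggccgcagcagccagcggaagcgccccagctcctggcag
Of the peaks outside every promoter, 37.0% in replicate 1 and 36.7% in replicate 2 held such a word in their central 300 bases, and their words per kb were 1.72 and 1.73.

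Other peaks around Neurog3 were mostly in 1 list only. Replicate 1 had 11 peaks in the gene and its 50 kb flanks, of which 2 were found in replicate 2, and replicate 2 had 5, of which 2 were found. The second shared peak lay downstream, at chr10:62182724-62183427 (q score 35.6) and chr10:62182861-62183614 (q score 42.3), the first of them 49634 bp from the TSS. The strongest peak of replicate 2 at this locus (chr10:62113738-62114822, q score 103) had no counterpart in replicate 1. A peak of replicate 1 at the promoter of the neighbour Fam241b (q score 67.3) had none in replicate 2.

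Nanos3 encodes an RNA-binding translational repressor of germ cells, and lies at chr8:84173733-84176552 on the minus strand. At its RefSeq start site only replicate 1 had a peak (chr8:84176114-84176771, q score 42.1, log2 ratio 2.29), which covered the TSS. Stronger signal lay on both sides of the gene in both replicates. Downstream, a peak at the promoters of Cc2d1a and 4930432K21Rik scored 209 in replicate 1 and 67.5 in replicate 2. The highest scores lay on the upstream side. A peak within 2 kb of the Mir181c and Mir181d start sites scored 58.6 in replicate 1 (chr8:84179654-84181911) and 60.9 in replicate 2 (chr8:84180547-84181499). The next scored 197 at chr8:84182813-84187747 in replicate 1 and 103 at chr8:84182374-84184517 in replicate 2. Replicate 1 then had 166 at chr8:84191816-84193669, and replicate 2 had 99.9 at chr8:84191772-84193223. Farther out, a peak of 8756 bp in replicate 1 (chr8:84196864-84205619, q score 263) faced separate peaks of 134 and 84.0 in replicate 2. These lay within 2 kb of a start site that GENCODE gives to Gm37352.

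Which gene the second of these upstream peaks is credited to depends on the annotation. GENCODE has an additional Nanos3 transcript without an annotated coding sequence whose start site lies 8665 bp upstream of the RefSeq one, at chr8:84185217. With that start site counted, Nanos3 had a promoter peak in both replicates, at q scores of 197 and 103. The stretch common to both replicates, chr8:84182813-84184517 (1705 bp), had a CpG ratio of 0.683 and 7 SOX words, or 4.11 per kb. Its central 300 bases are shown on the strand of Nanos3 with the words in capitals. The first capital run holds AACAAT and ACAATG overlapping on the opposite strand, and the second holds ACAAAG on the opposite strand.
Nanos3 upstream peak, chr8:84183516-84183815, minus strand: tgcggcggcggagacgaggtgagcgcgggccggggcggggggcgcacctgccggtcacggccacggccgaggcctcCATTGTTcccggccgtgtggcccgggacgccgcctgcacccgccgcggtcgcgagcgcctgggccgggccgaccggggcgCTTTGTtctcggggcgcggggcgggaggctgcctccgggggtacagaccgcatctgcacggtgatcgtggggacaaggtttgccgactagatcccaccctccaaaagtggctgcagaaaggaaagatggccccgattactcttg

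**Figure D3:**
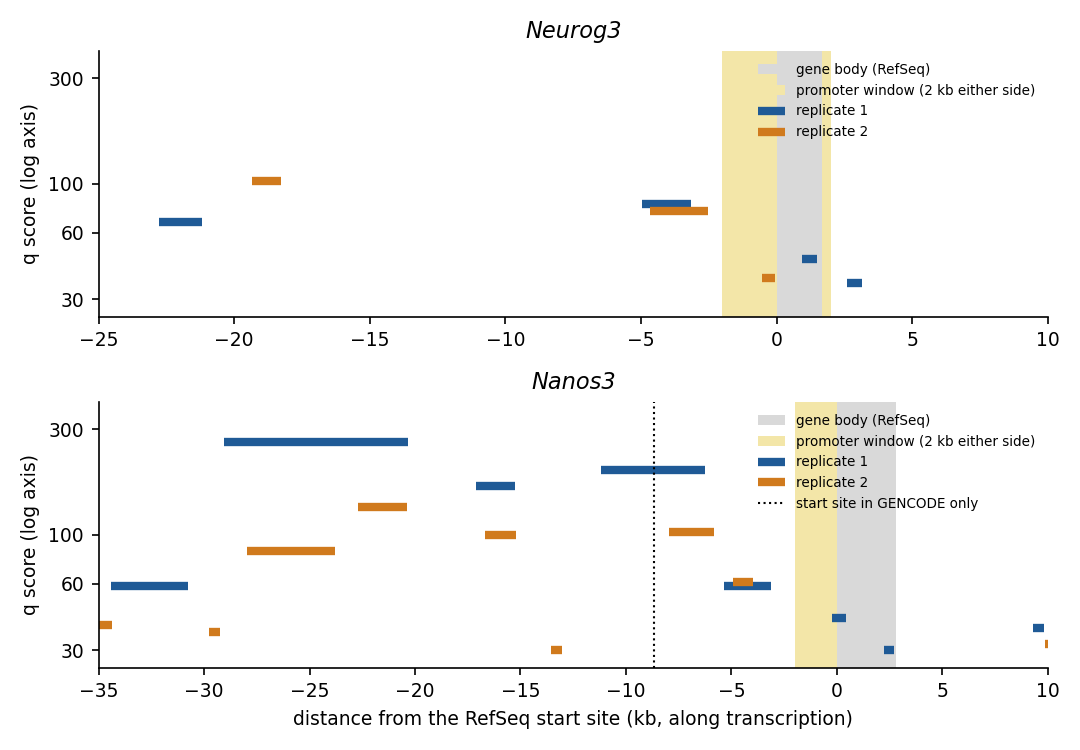
Peaks near Neurog3 (top) and Nanos3 (bottom) are drawn as horizontal bars at their q score (vertical log axis) against distance from the RefSeq start site in kb along transcription, in blue for replicate 1 and orange for replicate 2. At Neurog3 the shared peaks at scores of 80.9 and 75.00 lie left of the yellow 2 kb window. At Nanos3 the strong upstream peaks lie left of it, and the dotted line is the start site given by GENCODE alone.

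Lin28a encodes an RNA-binding protein that blocks maturation of let-7 microRNAs, and lies at chr4:134003330-134018816 on the minus strand. Replicate 1 had a promoter peak of 1190 bp covering the TSS (chr4:134017645-134018834, q score 53.0, log2 ratio 2.90). That peak ended just short of the sequence shown for Lin28a, so the CATTGT there lay outside it, while the peak itself held 2 SOX words. Replicate 2 had no peak within 5 kb of the TSS, and its nearest peak was 8625 bp upstream with a q score of 37.7. The promoter peak of replicate 1 also lay within 2 kb of a start site that GENCODE gives to Gm13061. The strong and reproduced peaks of this locus belonged to the neighbours on the downstream side. Hmgn2 scored 713 and 305 in replicates 1 and 2, and Dhdds scored 128 and 92.0.

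Rarg encodes retinoic acid receptor gamma, through which progenitors answer retinoic acid, and has 2 RefSeq promoters on chromosome 15, with starts at 102257522 and 102246500 on the minus strand. Both promoters had a peak covering the TSS in both replicates. The inner one was stronger, with q scores of 149 (chr15:102245173-102248207) and 77.7 (chr15:102245600-102248759). The outer one scored 98.1 (chr15:102255524-102258492) and 41.9 (chr15:102256960-102258112). Replicate 1 had 4 more peaks in the gene body, the strongest at the end of the gene with a q score of 94.1, and replicate 2 had 1 with 33.9. None of these 5 was found in the other replicate. The flanks held reproduced peaks at the promoters of Csad and Zfp740 (420 and 198), Mfsd5 (310 and 105) and Espl1 (134 and 104).

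Sohlh1 and Sohlh2 encode basic helix-loop-helix partners that spermatogonia need to differentiate. At Sohlh1 the promoter peak scored 74.8 in replicate 1 (chr2:25845917-25848108) and 43.8 in replicate 2 (chr2:25847203-25848086), with log2 ratios of 4.23 and 3.66. A second peak at the end of the gene scored 54.4 and 34.0. Kcnt1, upstream, had a reproduced promoter peak at 116 and 50.02. At Sohlh2 the promoter peak scored 32.8 (chr3:55181779-55182267, log2 ratio 2.30) and 48.3 (chr3:55181800-55182548, log2 ratio 3.34). Of the 7 genes with a promoter peak in both replicates, Sohlh2 alone had the higher score in replicate 2. No other peak lay within 50 kb of Sohlh2 in replicate 2, and in replicate 1 the only other one was at the Dclk1 promoter (q score 48.8).

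Taf4b encodes a TFIID subunit enriched in germ cells, and Foxo1 a forkhead factor of the stem and progenitor pool. The Taf4b promoter peak on chromosome 18 scored 386 in replicate 1 (1763 bp) and 110 in replicate 2 (1573 bp), and it was the sole peak of replicate 1 in the gene and its flanks. The Foxo1 promoter peak scored 435 (chr3:52266408-52270270) and 123 (chr3:52267263-52270731). A second Foxo1 peak 12007 bp upstream in replicate 2 was also in both lists, at 60.2 and 58.4.

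Ddit4 encodes a stress-induced inhibitor of mTORC1, and had the strongest promoter peak of the 10 genes in both replicates. In replicate 1 a single peak of 6164 bp (chr10:59947204-59953367, q score 710, log2 ratio 5.20) covered the whole gene of 2096 bp. In replicate 2 the same stretch was split into a peak over the TSS (chr10:59951074-59953228, q score 278, log2 ratio 4.16) and one over the end of the gene (chr10:59947618-59950536, q score 50.3). Upstream peaks in both lists lay at 17644 bp (150 and 80.1), 21976 bp (92.6 and 57.7) and 26917 bp (42.2 and 50.01) from the TSS, as placed in replicate 1. A peak at the promoters of Anapc16 and Ascc1, 49329 bp upstream in replicate 2 (chr10:60001099-60003984, q score 141), was also found in replicate 1.

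Upp1 encodes uridine phosphorylase and was the opposite case. Replicate 1 had no peak in the gene or within 50 kb of it. Replicate 2 had 1, over the most downstream start site (chr11:9118257-9118753), with a q score of 30.1 and a log2 ratio of 1.98, next to the threshold of the list. A promoter score that low was the lowest any gene with a promoter peak had in replicate 2.

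The promoter scores ordered the genes alike in both replicates at the top and not below. Among all genes with a promoter peak, the percentile by q score was 98.5% ± 0.22 (SD, n = 2) for Ddit4, 84.0% ± 11.2 for Foxo1 and 79.0% ± 13.4 for Taf4b. Foxo1 stood above Taf4b within each replicate (91.9% and 88.5% in replicate 1, 76.1% and 69.6% in replicate 2), and both genes stood lower in replicate 2. Rarg followed at 47.5% ± 2.24, and Sohlh1 at 22.2% ± 4.58. Sohlh2 (13.6% ± 15.1) and Neurog3 (11.95% ± 1.06) could not be told apart, and Sohlh2 overlapped with Sohlh1 as well. The single values of Lin28a (16.8%), Nanos3 (10.4%) and Upp1 (0.0%) had no replicate. The median q score of the members with a promoter peak was 74.8 in replicate 1 and 63.0 in replicate 2, beside 165 and 78.8 over all genes with one.

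The log2 ratio gave another order below Ddit4. Sohlh1 rose to a percentile of 83.0% ± 13.5 by log2 ratio, and Rarg to 68.5% ± 6.05. Taf4b stood at 62.5% ± 20.8 and Foxo1 at 76.6% ± 24.7 by that measure. Sohlh2 split between 3.19% in replicate 1 and 83.3% in replicate 2. Neurog3 stayed low at 20.9% ± 0.36. The median percentile of the members, averaged over the replicates, was 31.1% by q score and 65.1% by log2 ratio, so their place among bound genes depended on the measure.

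**Figure D4:**
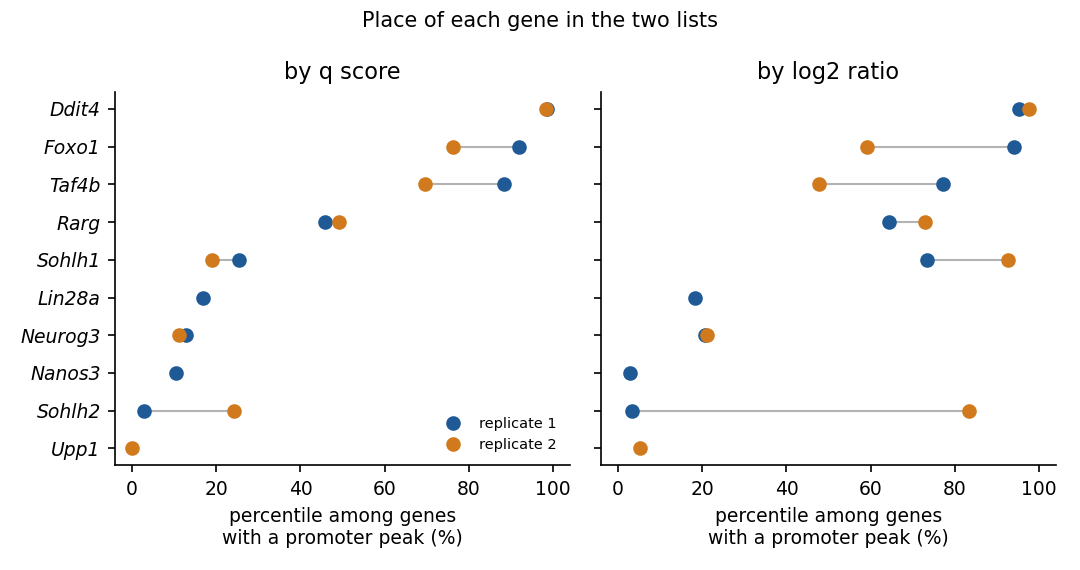
The percentile of each gene among all genes with a promoter peak (horizontal axes, %) is given by q score (left) and by log2 ratio (right), with replicate 1 in blue, replicate 2 in orange and a line joining them. Sohlh1 and Rarg lie farther right by log2 ratio, Ddit4 is at the right edge by both, and Sohlh2 has its replicates farthest apart by log2 ratio.

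Counted over the genes and their 50 kb flanks, the number of peaks differed widely. Replicate 1 had 98 peaks (10 at promoters, 7 elsewhere in gene bodies and 81 in flanks), from 0 at Upp1 to 21 at Rarg. Replicate 2 had 73 (10, 4 and 59), from 1 at Upp1 and Sohlh2 to 14 at Rarg and Nanos3. The median was 10.0 per gene in replicate 1 and 6.5 in replicate 2, beside 5.0 and 3.0 over all genes. In the flanks, 15 and 14 peaks lay within 2 kb of a start site of another gene. Of the promoter peaks of the members 4 of 10 in replicate 1 were found in replicate 2, beside 59.0% of all promoter peaks, and 8 of 10 in replicate 2 were found in replicate 1, beside 85.4%. Of the peaks outside every promoter 11 of 73 (15.1%) and 20 of 49 (40.8%) were found, beside 11.9% and 28.4% of all such peaks. The promoter peak nearest to the edge of the 2 kb window lay 1234 bp from the TSS (Ddit4, replicate 2). The nearest peak beyond it lay at 2237 bp (Nanos3, replicate 1).

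SOX words were no denser in the promoter peaks of these genes than in promoter peaks at large. At least 1 word lay in 70.0% of the 10 member promoter peaks in either replicate, beside 76.2% and 67.7% of all promoter peaks. The density was 1.18 and 0.821 words per kb, beside 1.27 and 1.14. Ddit4 had the most, with 10 words in its peak of 6164 bp in replicate 1, and the Taf4b peaks had 0 in both replicates.

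ChIP-nexus, in which an exonuclease trims the bound DNA up to the protein, gave short lists of 110 and 18 peaks in the mouse chromosomes. None lay within 50 kb or 100 kb of any of the 10 genes. The nearest was 135 kb away, in replicate 1. With lists of this length, the lack of a peak says little about these genes.

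Beside the members, other progenitor and differentiation genes had promoter peaks at a similar or higher rate, and stem cell genes at a similar or lower one. Of 16 other progenitor and differentiation genes, among them Kit, Stra8, Dmrt1 and Rara, 13 had a promoter peak in both replicates, and 9 had one above a score of 60 in both. Dmrtb1 had none, and Cdh1 and Lin28b had one in replicate 1 alone. Ccnd2, a G1 cyclin that the study associates with self-renewal, had the highest score in replicate 1 (304) but not in replicate 2 (141). Of 12 genes of the stem cell pool 7 had a promoter peak in both replicates and 3 above a score of 60. Nanos2, T and Tspan8 had none, and Etv5, a target of GDNF signalling, scored highest in replicate 1 (291) but not in replicate 2 (82.6). Over all genes the share with a promoter peak in both replicates was 52.2%, and over protein-coding genes 57.9%. Above a score of 60 in both it was 35.2% of all genes. Whether either list or the 10 genes differ from these shares was not tested.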

How the data were processed

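SOX3 ChIP-seq and ChIP-nexus peak lists from postnatal day 7 mouse testis were used. For ChIP-seq the authors aligned reads to mm10 with Novoalign, placed multi-mapping reads at random, removed duplicates with Picard and called peaks per replicate with USeq, keeping scores above 30. No header stands in the deposited ChIP-seq lists, so the names of the score columns (p score and q score) and of the log2 ratio were inferred from layout and values. The deposited ChIP-nexus lists are in the format of MACS2 2.1.1 and give a score, a fold enrichment and −log10 p and q values, of which only the positions were used. The lists hold no read counts. The study gives read numbers per library, which were not used here, and no interval that needs depth was computed.

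The start sites were those of 45756 RefSeq transcripts of 26182 genes on GRCm38.p6, and GENCODE M21 was the alternative annotation. Distances were measured to the nearest edge of a peak. Counts were made in Python 3.11.15 with pandas 2.3.3 and numpy 2.4.6, and overlaps were checked on simulated peaks and against bedtools 2.31.1. The promoter table held sequences for 9 of the 10 genes, all identical to the genome at their coordinates. All 10 member genes are named. Genes of the related lists are named by rule where they had no promoter peak or the highest score, and neighbours where a peak lay within 2 kb of their start site. Cdh1, Lin28b and Gm13061 were named after their values were seen, and Kit, Stra8, Dmrt1 and Rara only to say what the list holds. The members, lists and words were chosen with earlier results of these data known. Alternatives were a score above 60, windows of 1 kb and 5 kb, other annotation, flanks of 20 kb, the log2 ratio, 1 bp overlap and leaving out each replicate.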

Additional observations from a re-analysis of the deposited data

How the results depend on the processing

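Of 31 alternative values of the main counts, 24 stayed within 1.5 times the reported count or within 1 SD of the reported percentile, and 7 did not. That SD was taken between the 2 replicates. Leaving out a replicate therefore could not move the percentile beyond it, and those values among the 24 say nothing about stability. At a q score above 60, genes with a promoter peak in both replicates fell to 4 of 10, the stem cell genes to 3 of 12, and the mean number of peaks per replicate in the genes and their flanks from 85.5 to 26.0. With a flank of 20 kb that number was 42.0. The log2 ratio moved the median percentile of the members from 31.1% to 65.1%. AACAAT alone was at 0 genes instead of 3, and 1 kb either side of the TSS a SOX word was at all 10. With GENCODE start sites, or with 5 kb either side, 8 of 10 genes had a promoter peak in both replicates, the added gene being Nanos3 each time. Leaving out a replicate gave 8 to 9 genes, 73 to 98 peaks and a median percentile of 25.4% to 36.7%. No paired analysis was possible because the results come from no test. The lists hold no reads per peak and give no value for a gene without a peak, so a missing peak means a score under 30 and not a measured absence of binding.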
